A study of Rosa rugosa with 4 samples.

Results

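The contigs described here are pieces of rose transcripts whose closest database match was a "TMV resistance protein N-like" gene. They were chosen by annotation alone. The first hit had to name Fragaria, Rosa, Prunus, Malus or Pyrus, the contig had to be at least 300 nt long, and the text of the hit had to hold the words TMV resistance protein N. The rule gave 99 contigs of the 65535 in the table, and of the 5518 that met its genus and length conditions. RNA came from petals (petal 1 and petal 2) and leaves (leaf 1 and leaf 2) of untreated Rosa rugosa plants that were grown in a greenhouse in Kunming. Neither the labels nor the methods name the cultivar, the age of the plants or the plant behind each sample, so p-values measure the spread between these libraries, which may be technical. The contigs were assembled from all 4 libraries together, and the table holds part of that assembly.

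The N protein of tobacco, which gives resistance to tobacco mosaic virus, is the namesake of one class of plant immune receptors. Such a receptor carries a TIR domain that makes a nucleotide signal, a nucleotide-binding switch (NB) and leucine-rich repeats (LRR) that take part in recognition. In Arabidopsis and tobacco relatives, receptors with a TIR domain act through EDS1 and its partners PAD4 and SAG101 and through helper receptors of the NRG1 and ADR1 families. Many plant genomes hold many related copies of these genes. In many plants the mRNAs of such genes are cut by microRNAs and give rise to phased small interfering RNAs.

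The receptor was represented by short pieces from many genes. Contig length ran from 300 to 956 nt around a median of 351 nt. Under 500 nt lay 90 of the 99, so each covers a part of a receptor. The first hit was in strawberry (Fragaria) for 84 contigs, pear (Pyrus) for 7, apple (Malus) for 4, Prunus for 4 and Rosa for 0. These hits named 54 different genes, of which 21 were hit by 2 or more contigs, LOC101307473 by 7 and LOC105349611 by 6. E-values lay between 2e-151 and 2e-06. The 99 contigs belonged to 90 assembly components, and 9 components held a pair of them. At the length limit, TR112075 (300 nt) was the shortest contig inside, with 3.66 FPKM in leaf 1 and 0 in the other libraries, and TR142072 (298 nt) the longest outside, with 3.73 FPKM in petal 1 and 0 in the others. FPKM is the number of fragments per kilobase of contig, scaled by the mapped fragments of the library. Contigs are called here by component, and their names all continue with c0, g1 and i1 unless g2 is given.

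Mapped depth, read from the FPKM value that a single fragment was worth, was 1.86e+07 and 2.36e+07 fragments in petal 1 and petal 2 and 2.66e+07 and 2.02e+07 fragments in leaf 1 and leaf 2. The table held 1.20 and 2.93% of these fragments in petal 1 and petal 2, against 0.876 and 0.80% in leaf 1 and leaf 2. Petal 2 stood apart. First hits in grey mould fungi and their relatives took 27.9% of its fragments in the table, against at most 0.0803% in each other library, and Rosaceae hits took 19.7%, against 77.0 to 79.4%. Aphid hits took 6.47 and 3.45% in petal 1 and petal 2 and 0.29 and 0.37% in leaf 1 and leaf 2, and hits to the leaf spot fungus Marssonina 0.0125 and 0.162% in petal 1 and petal 2 and 4.02 and 2.38% in leaf 1 and leaf 2. The part of these organisms in the results below was not tested. The scent enzyme NUDX1 (TR136248), a petal marker in roses, had 347.1 and 35.5 FPKM in petal 1 and petal 2 and 0.74 and 0.09 FPKM in leaf 1 and leaf 2. The petal list of 17 contigs, 7 of them listed at 0 in all libraries, summed to 367 and 39.1 FPKM in petal 1 and petal 2 and 24.9 and 32.1 FPKM in leaf 1 and leaf 2. Without that NUDX1 contig, the other 16 summed to 20.1 and 3.65 FPKM in petal 1 and petal 2 and 24.1 and 32.0 FPKM in leaf 1 and leaf 2. Their sum thus did not mark the petal libraries. A second NUDX1 contig, TR120749, had 10.7 and 0.97 FPKM in petal 1 and petal 2 and 0 and 0 FPKM in leaf 1 and leaf 2. The 15 contigs for photosynthesis proteins did not mark the leaf libraries in this table: 5 were listed at 0 in all libraries, and their summed level was 124 and 56.2 FPKM in petal 1 and petal 2 and 90.7 and 84.6 FPKM in leaf 1 and leaf 2.

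The N-type contigs were expressed at low levels, and their summed level hardly separated the tissues. The 99 contigs summed to 140.3 FPKM in petal 1 and 120.2 FPKM in petal 2, against 134.0 FPKM in leaf 1 and 133.5 FPKM in leaf 2. The petal mean was 130.2 ± 14.2 FPKM and the leaf mean 133.7 ± 0.354 FPKM (SD, n = 2 each), a ratio of 0.974. The leaf values lay between the petal values. As a share of all Rosaceae contigs of at least 300 nt, whose own sums were higher in the petal libraries, the N-type contigs made up 0.722 and 0.668% of FPKM in petal 1 and petal 2 and 0.885 and 0.902% in leaf 1 and leaf 2. On that scale the tissues did not overlap, and the petal over leaf ratio was 0.778. No test was made of the sum, since an exact permutation test of 2 libraries against 2 cannot go below p = 0.333. Fewer cells with a transcript and less of it per cell cannot be told apart in these samples.

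Behind these sums stood few fragments. The reconstructed number of fragments was 215 in petal 1 and 232 in petal 2, against 223 in leaf 1 and 193 in leaf 2, 863 in all. All 188 values above 0 came out within 0.1 of a whole fragment. A contig had a median of 5 fragments over the 4 libraries and at most 72 (TR113065). Of the 99 contigs, 9 had 0 fragments, 39 had 1 to 4, 38 had 5 to 19 and 13 had 20 or more. At 300 nt a single fragment was worth 1.79 and 1.48 FPKM in petal 1 and petal 2 and 1.83 and 2.42 FPKM in leaf 1 and leaf 2, while at 956 nt it was worth 0.0806 and 0.0636 FPKM in petal 1 and petal 2 and 0.0587 and 0.0776 FPKM in leaf 1 and leaf 2. A ranking by FPKM therefore puts short contigs first. The median of the mean FPKM was 0.915 for the N-type contigs, 0.823 for the 148 other NB-LRR contigs and 0.673 for all 5419 other Rosaceae contigs of at least 300 nt. Intervals and detection limits from fragments cover counting error only.

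No N-type contig passed the test between petal and leaf. Of the 99 contigs, 45 had a mean of at least 1 FPKM and entered the limma fit on log2(FPKM + 1), with p-values adjusted by Benjamini-Hochberg over all 18894 transcripts tested. Of these 45, 0 passed an adjusted p of 0.05, in either direction, and 0 had an unadjusted p under 0.05. Of all 18894 transcripts 9 passed, or 0.0476% (0.0159% higher in petal and 0.0318% lower), so a count of 0 among 45 is near the background. The log2 differences, petal minus leaf, ran from -2.24 to 1.60 with 22 above 0 and 23 below, and adjusted p-values from 0.503 to 0.998. Their median was -0.08, beside -0.05 for the 1807 other Rosaceae contigs tested, 0.18 for the 61 other NB-LRR contigs tested and 1.33 for all transcripts tested. Standard errors were 1.42 to 2.05 on the log2 scale, so a p-value above the threshold does not show equal levels. In fragments simulated from the transcripts of the table, this fit called 0% of 99 changes of 4-fold and 0% of 100 changes of 16-fold. A count of 0 calls therefore cannot tell changed from unchanged contigs, even at such folds. Of the 45 contigs, 10 passed the level filter through a single library.

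The plot of values by library shows the 12 contigs with the highest means, of which 0 were called. TR134950 (329 nt, hit LOC101295592 of strawberry) had the highest mean, with 0 and 13.2 FPKM in petal 1 and petal 2 and 0 and 20.1 FPKM in leaf 1 and leaf 2. It was high in both libraries numbered 2 and listed at 0 in both numbered 1, and the tissues overlapped (log2 difference -0.29, SE 2.05, limma adjusted p = 0.928). TR118447 (370 nt, hit LOC105349611) was its mirror image, with 8.94 and 0 FPKM in petal 1 and petal 2 and 10.04 and 0 FPKM in leaf 1 and leaf 2. TR19120 g2 (334 nt) had 0 and 8.15 FPKM in petal 1 and petal 2 and 0 and 6.64 FPKM in leaf 1 and leaf 2. TR16847 (339 nt, hit LOC101299219) had 0 and 5.30 FPKM in petal 1 and petal 2 and 0 and 7.36 FPKM in leaf 1 and leaf 2. All of these were high in a petal and a leaf library of 1 number and listed at 0 in the other petal and leaf library.

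**Figure D1:**
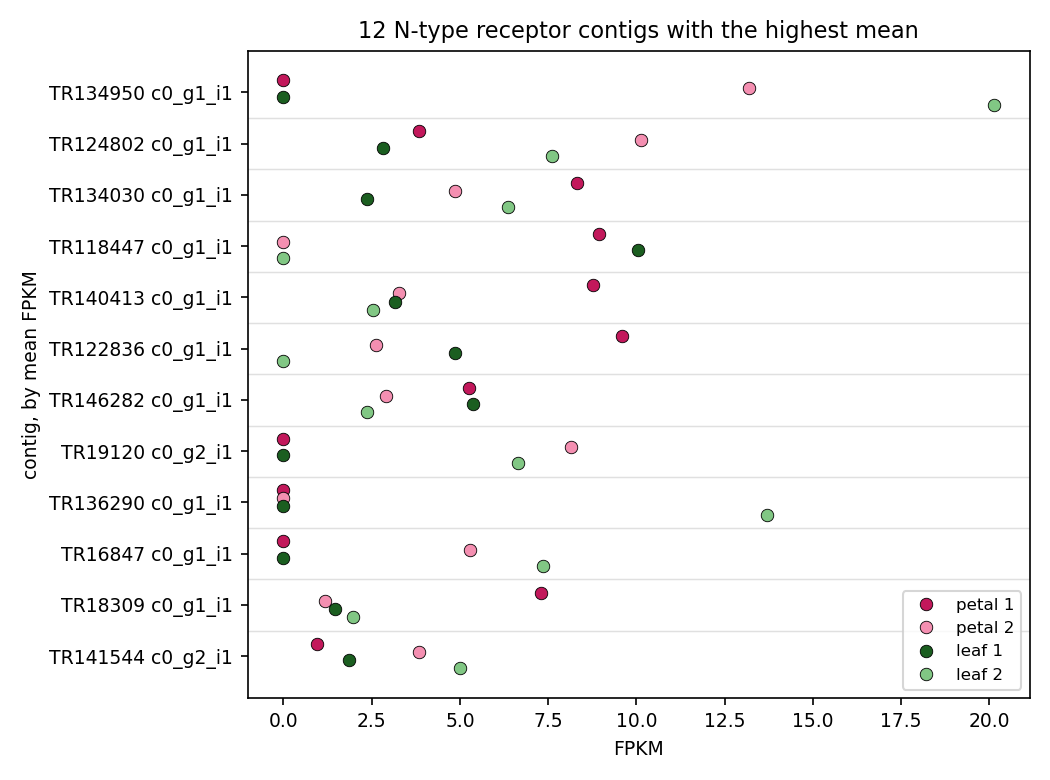
FPKM (x axis) of the 12 N-type receptor contigs with the highest mean, 1 row a contig, with petal libraries in pink and leaf libraries in green and 1 point for each library. TR134950, TR118447, TR19120 g2 and TR16847 had values in a petal and a leaf library of 1 number and 0 in the other pair.

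A further group among the 12 had a value in every library. TR124802 (337 nt, a Prunus hit) had 3.85 and 10.1 FPKM in petal 1 and petal 2 and 2.82 and 7.60 FPKM in leaf 1 and leaf 2. TR134030 (323 nt) had 8.32 and 4.85 FPKM in petal 1 and petal 2 and 2.37 and 6.36 FPKM in leaf 1 and leaf 2. TR146282 (301 nt) had 5.27 and 2.90 FPKM in petal 1 and petal 2 and 5.37 and 2.38 FPKM in leaf 1 and leaf 2. In these contigs the tissues overlapped. TR140413 (365 nt, hit LOC101311135) was higher in petal, with 8.77 and 3.26 FPKM in petal 1 and petal 2 and 3.15 and 2.55 FPKM in leaf 1 and leaf 2 (log2 difference 0.75, SE 1.57, limma adjusted p = 0.724). TR18309 (311 nt) had 7.29 and 1.19 FPKM in petal 1 and petal 2 and 1.47 and 1.97 FPKM in leaf 1 and leaf 2, and TR141544 g2 (338 nt) 0.95 and 3.84 FPKM in petal 1 and petal 2 and 1.85 and 4.99 FPKM in leaf 1 and leaf 2. In both of these the tissues overlapped as well. TR122836 (306 nt, an apple hit) was outside the group with a value in every library, since it was listed at 0 in leaf 2. It had 9.59 and 2.63 FPKM in petal 1 and petal 2 and 4.87 FPKM in leaf 1. TR136290 is described with the lowest differences.

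The 4 lowest and the 4 highest differences rested on few fragments or on a single library. Next after these came TR115828 on the leaf side and TR141400 on the petal side, on 24 and 26 fragments, both given below. Lowest was TR11784 (317 nt), with 0 and 0 FPKM in petal 1 and petal 2 and 3.96 and 3.53 FPKM in leaf 1 and leaf 2 (log2 difference -2.24, SE 1.77, limma adjusted p = 0.503). These leaf values stood for 3 and 2 fragments. The leaf mean was 2.11-fold the level of 3 fragments over both petal libraries, a figure that leaves out the counting error of the leaf values. TR136290 (484 nt) had 0 and 0 FPKM in petal 1 and petal 2 and 0 and 13.7 FPKM in leaf 1 and leaf 2. All of its 46 fragments lay in leaf 2, so the corresponding figure of 18.7-fold was set by 1 leaf library against the other 3. TR136418 (373 nt) had 0.62 and 0 FPKM in petal 1 and petal 2 and 2.85 and 4.62 FPKM in leaf 1 and leaf 2, and TR142082 (384 nt) 0 and 0 FPKM in petal 1 and petal 2 and 1 and 3.38 FPKM in leaf 1 and leaf 2. In both, the tissues did not overlap, on 12 and 7 fragments in all.

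On the petal side, TR16542 g2 (308 nt) had the highest difference, with 3.08 and 1.26 FPKM in petal 1 and petal 2 and 0 and 0 FPKM in leaf 1 and leaf 2 (log2 difference 1.60, SE 1.64, limma adjusted p = 0.503). That is 3 fragments in all. TR127070 (325 nt) had 0 and 7.5 FPKM in petal 1 and petal 2 and 0 and 0 FPKM in leaf 1 and leaf 2, and TR126528 (423 nt) 0 and 6.37 FPKM in petal 1 and petal 2 and 0 and 0 FPKM in leaf 1 and leaf 2. Both had a value in petal 2 alone, of 8 and 20 fragments. Their petal means were 1.90-fold and 5.42-fold the level of 3 fragments over both leaf libraries. These figures leave out the counting error and the spread of the petal values. TR14666 (353 nt) had 3.89 and 1.88 FPKM in petal 1 and petal 2 and 0 and 1 FPKM in leaf 1 and leaf 2, on 9 fragments.

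Over the 45 contigs tested, in 5 (11.1%) the lower petal value exceeded the higher leaf value, beside 7.97% of all transcripts tested, and in 6 (13.3%) both petal values lay below both leaf values, beside 5.74%. Both shares were above those of all transcripts tested, a difference that was not tested. Of those 18894 transcripts, 4464 had a Rosaceae first hit, and the shares among Rosaceae contigs under the same filter are not given here. Over all 99 contigs these counts were 9 (9.09%) and 11 (11.1%), beside 14.3% and 12.9% of the other Rosaceae contigs of at least 300 nt, and both shares were below these. Of the contigs in these counts, 3 on each side had 20 or more fragments, and they are named here after their values were seen. One of them, TR140413, is given above. TR15028 (781 nt, hit LOC101303293), one of the 4 longest contigs, had 0.44 and 0.17 FPKM in petal 1 and petal 2 and 1.93 and 1.28 FPKM in leaf 1 and leaf 2. This was 6 fragments in petal against 36 in leaf, and its mean was below the filter. TR115828 (404 nt, hit LOC101298994) had 1.39 and 0.37 FPKM in petal 1 and petal 2 and 5.68 and 3.29 FPKM in leaf 1 and leaf 2, or 4 fragments in petal against 20 in leaf. TR141400 (499 nt, an apple hit) had 3.08 and 2.03 FPKM in petal 1 and petal 2 and 0.82 and 0 FPKM in leaf 1 and leaf 2, or 22 fragments in petal against 4 in leaf. All of these contigs had values that kept the tissues apart, on more fragments than most N-type contigs. TR106322 (629 nt, hit LOC101309009) had 1.42 and 2 FPKM in petal 1 and petal 2 and 0 and 0.96 FPKM in leaf 1 and leaf 2, or 25 fragments in petal against 6 in leaf. TR125103 (448 nt, a pear hit) had 1.35 and 0.54 FPKM in petal 1 and petal 2 and 2.8 and 1.89 FPKM in leaf 1 and leaf 2, or 6 fragments in petal against 15 in leaf. When transcripts were kept by 20 or more fragments in place of the mean FPKM, 13 N-type contigs were tested and 0 passed. TR15028 then had a log2 difference of -0.99 (SE 0.549), TR115828 of -1.56 (SE 0.716), TR125103 of -0.80 (SE 0.638), TR141400 of 1.38 (SE 0.653) and TR106322 of 0.94 (SE 0.643), each with a limma adjusted p of 0.469. TR140413 had 0.75 (SE 0.791, limma adjusted p = 0.489).

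The long contigs give values with finer steps. TR113065 (678 nt, hit LOC101308715) had 3.46 and 1.64 FPKM in petal 1 and petal 2 and 1.96 and 1.79 FPKM in leaf 1 and leaf 2, on 25, 15, 19 and 13 fragments. It had more fragments than any other N-type contig, and its tissues overlapped (log2 difference 0.26, SE 1.70, limma adjusted p = 0.923). TR118609 (737 nt) had 0.12 and 0.38 FPKM in petal 1 and petal 2 and 1.60 and 0.12 FPKM in leaf 1 and leaf 2, so leaf 1 alone was high. The longest, TR18863 g2 (956 nt), was listed at 0 in every library.

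Many contigs had values in some libraries and not in others. Of the 99 contigs, 9 were listed at 0 in all libraries, 34 had a value in a single library, 29 in 2, 12 in 3 and 15 in all 4. Petal 1 and petal 2 had values for 50 and 50 contigs, against 48 and 40 in leaf 1 and leaf 2. Of the 29 contigs with values in 2 libraries, 18 had them in the petal and the leaf library of 1 number, 8 in both libraries of 1 tissue and 3 in a petal and a leaf library of different numbers. Of the 18, 11 had values in petal 1 and leaf 1 and 7 in petal 2 and leaf 2. Of the 8, 4 had values in petal alone and 4 in leaf alone. The heat map of all 99 contigs shows these groups.

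**Figure D2:**
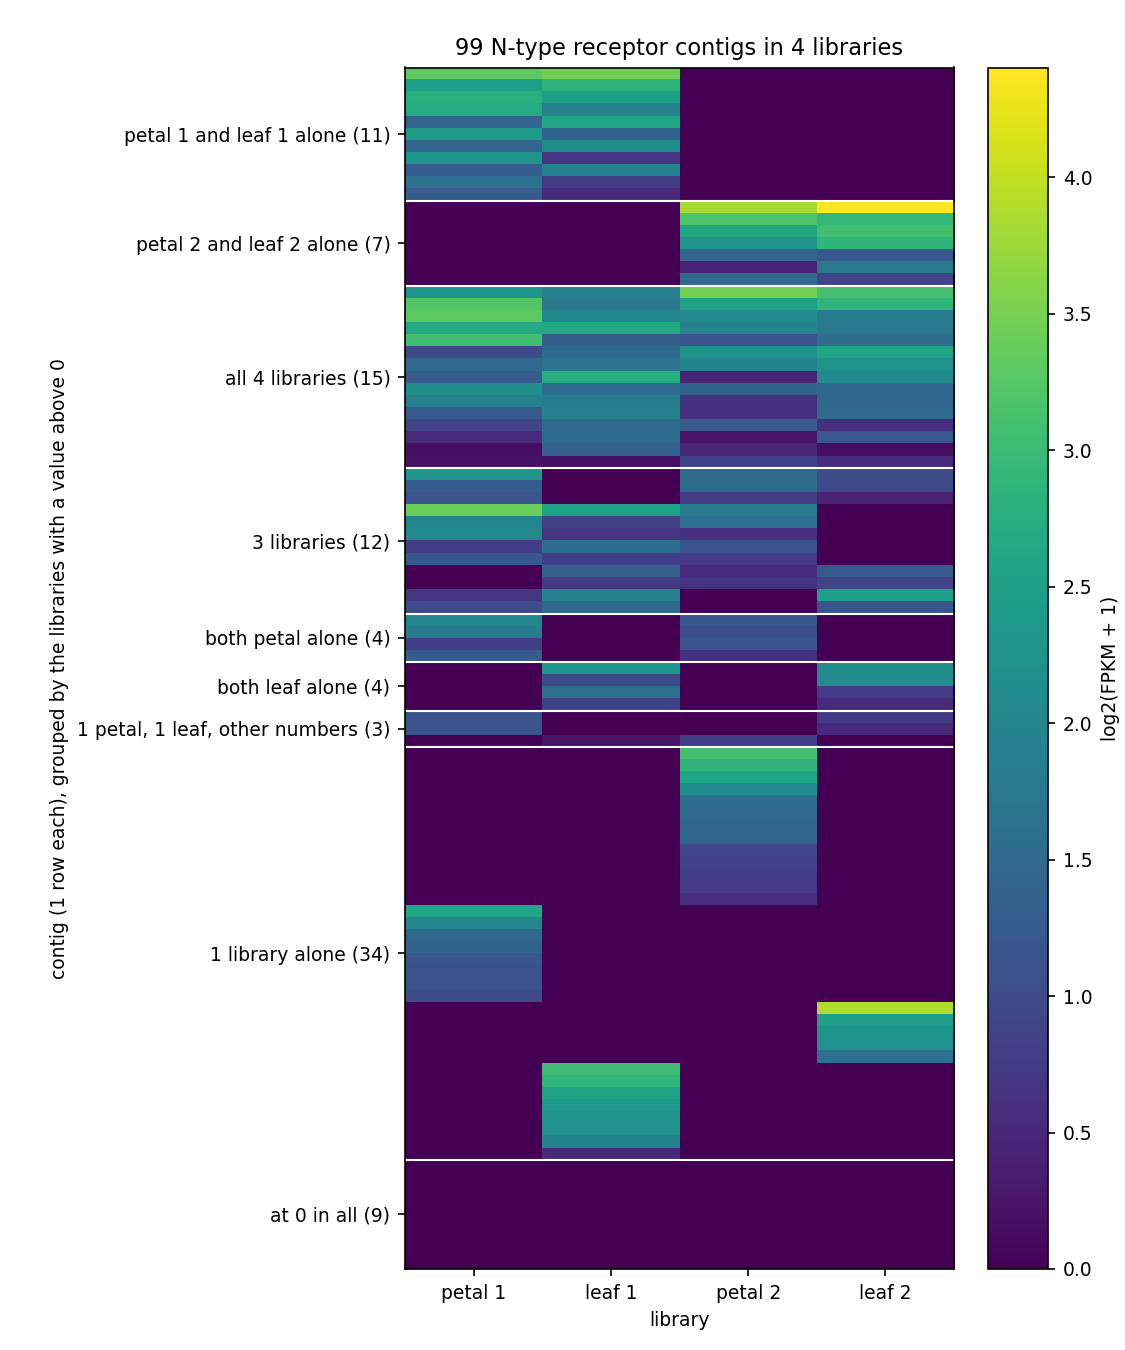
Log2(FPKM + 1) of the 99 N-type receptor contigs (rows) in petal 1, leaf 1, petal 2 and leaf 2 (columns), grouped by the libraries in which a contig had a value above 0, with the number of contigs in each group. The groups of 11 and 7 contigs at the top had values in both libraries of 1 number and 0 in the other pair.

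The 18 contigs of a single number carried 3 to 31 fragments each, with a median of 7, and 7 of them had 10 or more. The 8 contigs of a single tissue carried 3 to 7 fragments each, and 0 had 10 or more. The 11 contigs of number 1 made up 29.4% of the summed N-type FPKM of petal 1 and 28.8% of that of leaf 1. The 7 contigs of number 2 made up 28.6% in petal 2 and 33.7% in leaf 2. For TR134950 a value of 0 allowed up to 3 fragments, or 3.21 FPKM in leaf 1, below the 13.2 and 20.1 FPKM of petal 2 and leaf 2. This did not hold for all of the 18. TR110928 had 1.72 and 3.51 FPKM in petal 1 and leaf 1, and 0 in the other pair. There 3 fragments were worth 4.26 and 6.99 FPKM in petal 2 and leaf 2. Its values of 0 therefore do not show a lower level in that pair. Counting a library only with at least 2 fragments gave 14 contigs of a single number and 6 of a single tissue, and at least 3 fragments gave 15 and 3, both chosen after seeing the data. The labels do not say whether a number marks a shared plant, day or batch, so the numbers and any such source cannot be told apart.

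The same classes were found in the other contigs. Contigs with values in the petal and the leaf library of 1 number alone made up 18.2% of the N-type contigs, 18.2% of the other NB-LRR contigs (27 of 148) and 14.1% of all other Rosaceae contigs (766 of 5419). Contigs with values in both libraries of 1 tissue alone made up 8.08% of the N-type contigs, 9.46% of the other NB-LRR contigs (14) and 12.1% of all other Rosaceae contigs (653). The class with values in a petal and a leaf library of different numbers made up 3.03, 2.03 and 4.004%. These shares are descriptions of these 4 libraries, and their differences were not tested.

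**Figure D3:**
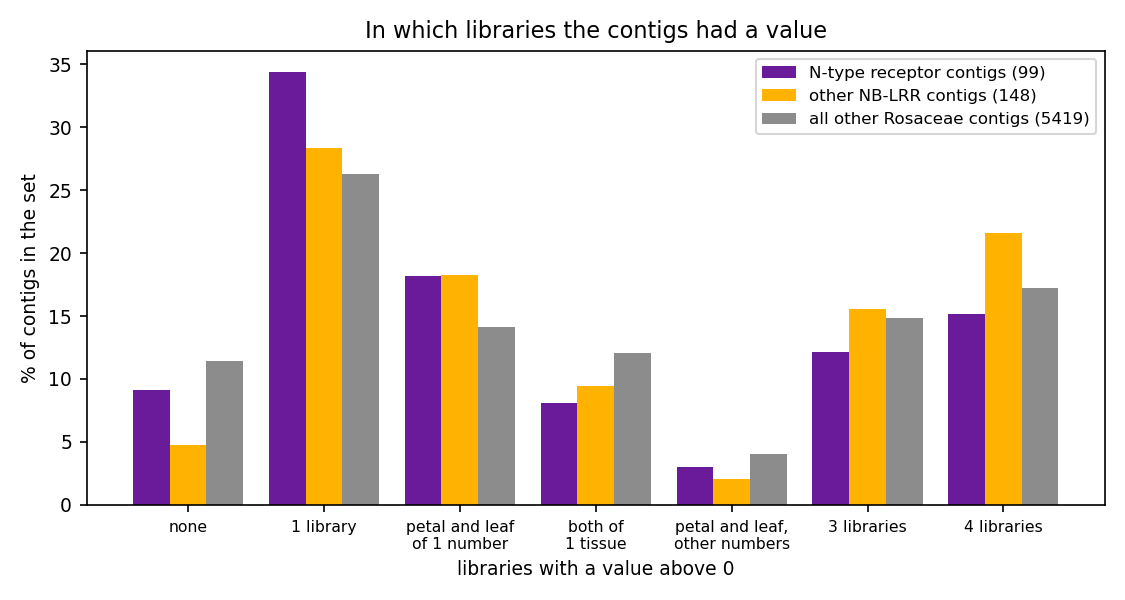
Share of contigs (y axis, %) by the libraries in which they had a value above 0 (x axis), for the 99 N-type receptor contigs, 148 other NB-LRR contigs and all 5419 other Rosaceae contigs of at least 300 nt. In each set more contigs had values in the petal and leaf library of 1 number alone (18.2, 18.2 and 14.1%) than in both libraries of 1 tissue alone (8.08, 9.46 and 12.1%).

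Over the 99 contigs, log2(FPKM + 1) of petal 1 and leaf 1 had a Pearson correlation of 0.40 and that of petal 2 and leaf 2 of 0.42. Petal 1 and petal 2 had one of 0.07, and leaf 1 and leaf 2 of 0.05. Petal and leaf libraries of different numbers had -0.01 (petal 1 and leaf 2) and -0.13 (petal 2 and leaf 1). The points are contigs of the same 4 libraries, many at 0, and the correlations are given as a description. Over the 148 other NB-LRR contigs the values were 0.28 and 0.41 within a number and 0.43 and 0.28 within a tissue. Over the 5419 other Rosaceae contigs they were 0.46 and 0.47 within a number and 0.49 and 0.48 within a tissue. Among the 5232 other Rosaceae contigs with a mean no higher than that of the highest N-type contig, all of these values were lower, at 0.20 and 0.17 within a number and 0.15 and 0.17 within a tissue. The N-type contigs had the lowest values within a tissue of these sets, a difference that was not tested.

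**Figure D4:**
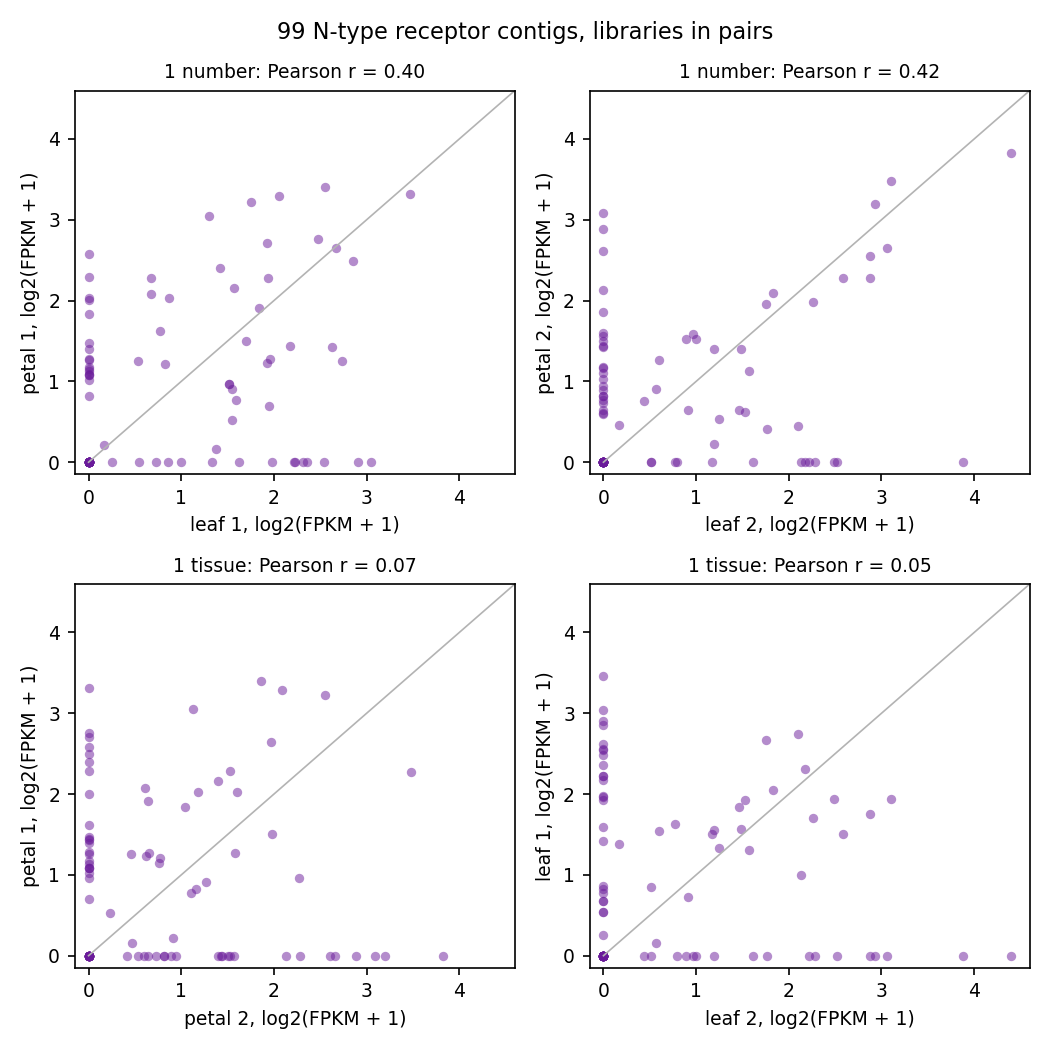
Log2(FPKM + 1) of the 99 N-type receptor contigs in pairs of libraries (1 point a contig, grey line of equal values): petal against leaf of number 1 and of number 2 in the upper panels, and the libraries of petal and of leaf against each other in the lower panels. Pearson correlations were 0.40 and 0.42 in the upper panels and 0.07 and 0.05 in the lower panels, where more contigs lie on an axis.

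Some contigs that hit the same gene had their values in different libraries. Of the 21 genes hit by 2 or more contigs, 9 (42.9%) had at least 1 contig with values in 1 or both libraries of number 1 and in no other, and at least 1 with values in 1 or both of number 2 and in no other. The share was 20% (7 of 35 such genes) among the other NB-LRR contigs and 8.90% (80 of 899) among all other Rosaceae contigs, sets in which the number of contigs a gene differs, and these differences were not tested. This count includes contigs of 1 fragment, such as TR142212 and TR123828 of LOC101304530. Counting contigs with values in both libraries of their number, 3 of the 21 genes were split in this way. Beside these stood 3 of 35 genes among the other NB-LRR contigs and 20 of 899 among all other Rosaceae contigs. LOC105349611, with 6 contigs, is one of them. Its TR118447 and TR19120 g1 had values in petal 1 and leaf 1 alone, TR19120 g1 with 4.28 FPKM in petal 1 and 1.67 FPKM in leaf 1, while TR19120 g2 had values in petal 2 and leaf 2 alone. Summed over its 6 contigs, the gene had 13.2 and 9.98 FPKM in petal 1 and petal 2 and 14.7 and 6.64 FPKM in leaf 1 and leaf 2, so the sum was above 0 in every library. Likewise LOC101295592, with 3 contigs, had TR146228 with 1.69 and 0 FPKM in petal 1 and petal 2 and 5.16 and 0 FPKM in leaf 1 and leaf 2, opposite to TR134950. LOC101299219 had TR16847 in the libraries of number 2 and TR124517 (322 nt) in leaf 1 alone, with 7.24 FPKM, the highest value among contigs of leaf 1 alone. The highest among contigs of petal 1 alone was TR118128 (384 nt) with 4.99 FPKM. Of the 12 genes hit by 3 or more contigs, 10 had a value in all 4 libraries once their contigs were summed.

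Reads of near-identical copies can be assigned to either copy, so single contigs of such genes are uncertain. How alike the contigs of a gene are was not measured here. In each of the 9 components with a pair of N-type contigs, both contigs hit the same gene. In 5 pairs, 1 of the contigs was listed at 0 in every library, and these are 5 of the 9 contigs at 0. In the other 4 pairs, the 2 contigs had no library in common. TR16589 had 3.86 FPKM in leaf 2 alone for g1 (336 nt) and 3.68 FPKM in leaf 1 alone for g2 (321 nt), on 3 fragments each. The role of read assignment in these pairs was not tested.

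The genes known to work with TIR receptors gave no call either, in the fit that also called 0% of simulated 16-fold changes. EDS1, PAD4, SAG101, the chaperone partner RAR1, the salicylic acid regulators SARD1 and CBP60, the marker PR1, and Dicer, RDR and SGS3 of the small RNA pathway matched 0 Rosaceae contigs of at least 300 nt among those analysed here. The helper list matched 17 contigs, all by names of the Arabidopsis NRG1 family, which also belong to the other NB-LRR contigs. Of these 17, 7 were tested and 0 called in either direction, and their sum was 45.3 and 22.2 FPKM in petal 1 and petal 2 and 45.6 and 41.3 FPKM in leaf 1 and leaf 2. Its highest contig, TR142324, had 15.3 and 5.66 FPKM in petal 1 and petal 2 and 30.0 and 10.9 FPKM in leaf 1 and leaf 2. The next, TR133042, had 20.4 and 7.73 FPKM in petal 1 and petal 2 and 3.18 and 2.12 FPKM in leaf 1 and leaf 2. In TR142324 the tissues overlapped, since petal 1 lay above leaf 2. TR133042 was higher in both petal libraries, on 13 and 6 fragments against 2 and 1 in leaf 1 and leaf 2. Neither contig passed the test.

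Of the receptor chaperones, SGT1 matched 1 contig, listed at 0 in every library, and HSP90, which keeps NB-LRR proteins folded, matched 6. Of these 7 contigs, 3 were tested and 0 called, and their sum was 14.1 and 10.7 FPKM in petal 1 and petal 2 and 22.9 and 23.9 FPKM in leaf 1 and leaf 2. The sum was lower in both petal libraries, but most of it came from TR15489 g1 and g2 (300 nt each), on few fragments. TR15489 g1 had 2 and 3 fragments in petal 1 and petal 2 and 3 and 5 in leaf 1 and leaf 2. TR15489 g2 had 4 and 2 fragments in petal 1 and petal 2 and 8 and 3 in leaf 1 and leaf 2. The salicylic acid list had 14 contigs, of which 2 were tested and 0 called: 8 WRKY factors, 2 NPR, 2 TGA, 1 isochorismate synthase and 1 phenylalanine ammonia-lyase contig. The WRKY contigs were taken by the word WRKY alone and not by a tie to salicylic acid. Both contigs tested (TR118306 and TR119287) were WRKY hits, so no other gene of the list was tested. The 14 contigs summed to 7.90 and 8.18 FPKM in petal 1 and petal 2 and 6.82 and 10.9 FPKM in leaf 1 and leaf 2, and the tissues overlapped. Of the secondary small RNA machinery, 7 argonaute contigs were found, which load small RNAs to cut their targets. Of these 2 were tested and 0 called, with a sum of 1.55 and 1.40 FPKM in petal 1 and petal 2 and 10.8 and 3.88 FPKM in leaf 1 and leaf 2. Leaf 1 was the highest here, with 3 argonaute contigs that had a value in leaf 1 alone, on 5, 3 and 3 fragments.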

How the data were processed

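Per the labels and methods, total RNA was depleted of ribosomal RNA and sequenced, and the authors assembled the reads of all libraries with Trinity (2.0.6), took annotations from NCBI nt and nr, and estimated abundance with RSEM and bowtie (no versions named). The deposited unit is FPKM per contig. The sheet ends at 65535 contigs, and the rest of the assembly was not analysed here. The members and lists were chosen with earlier results of these data known.

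FPKM are not counts, so limma (3.58.1, R 4.3.3) with a trended prior was fitted to log2(FPKM + 1) of every transcript averaging at least 1 FPKM, with a term for tissue and no other. Tests were two-sided, with a threshold of 0.05 after Benjamini-Hochberg adjustment. Log2 differences are petal minus leaf and understate changes of low contigs. Fragments were reconstructed from the FPKM of 1 fragment at each contig length, a step tested on simulated data. At this step 98.7 to 98.8% of low values came out within 0.1 of a whole number in each library. Named contigs were those called, the 12 with the highest means, the 4 highest and 4 lowest differences, the 4 longest and, for each library, the highest among contigs with a value in it alone. Alternatives changed the pseudocount, filter, scaling, prior, block and libraries. Of the 54 genes hit, 0 were in the RefSeq gene table of Rosa rugosa, so no position is given. Contig sequences were not used here.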

Additional observations from a re-analysis of the deposited data

How the results depend on the processing

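The 0 calls among the N-type contigs held with pseudocounts of 0.1 and 10 FPKM, a minimum of 20 fragments, both scalings, Rosaceae transcripts alone, no trend, a robust prior and the replicate block. Without a filter 2 contigs were called, both on 1 fragment (TR10572 in petal 2 and TR108573 in leaf 1). With libraries left out the count was 0 to 4. All calls came without a petal library, where the lone petal value met 2 leaf values of 0 whose spread is 0 by construction. The filter of the study left 0 N-type contigs to test. The 9 calls over the whole table became 167 (pseudocount 0.1), 15 (pseudocount 10), 430 (no filter), 24 (filter of the study), 0 (at least 20 fragments), 2 (equal sums), 5 (equal Rosaceae sums), 1 (Rosaceae transcripts alone), 0 (no trend) and 72 (robust prior), and 0 to 8924 with libraries left out. The replicate block gave 52 calls, 0 of them N-type contigs. The numbers share no stated source, and with 2 pairs they were not taken as pairing.

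Equal sums moved the median of all transcripts to 1.03 and that of the N-type contigs to -0.34. The ratio of the summed N-type level was 0.722 with equal sums and 0.778 with equal Rosaceae sums, and 0.899 to 1.05 with libraries left out. Of 205 values of the 22 named contigs tested, under settings that kept all libraries, 200 kept their side and 5 changed sign: with equal sums TR124802 (-0.18), TR146282 (-0.34), TR19120 g2 (-0.42) and TR113065 (-0.086), and with equal Rosaceae sums TR146282 (-0.16). With libraries left out, 16 of 88 changed sign, in contigs whose differences then ran from -2.49 to 1.91 (TR134950), -0.24 to 0.96 (TR124802), -1.81 to 1.66 (TR118447), -0.37 to 0.55 (TR146282), -1.47 to 1.73 (TR19120 g2), -1.74 to 1.33 (TR16847), -0.31 to 1.61 (TR18309), -1.08 to 0.23 (TR141544 g2) and -0.12 to 0.63 (TR113065). The cause was not tested.

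Chosen after seeing the data, a minimum of 3 fragments gave 3 contigs of a single tissue. The mean correlation within a number, 0.41, became 0.35 (pseudocount 0.1), 0.48 (pseudocount 10) and 0.46 (51 contigs with at least 5 fragments). That within a tissue, 0.06, became 0.030 (pseudocount 10) and -0.083 (at least 5 fragments).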

Other observations

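Besides the 99 contigs, 109 contigs with the same words and a Rosaceae first hit were shorter than 300 nt (176 to 298 nt). Of these, 68 were listed at 0 in all libraries, 34 had a value in a single library, 5 in the petal and the leaf library of 1 number, 1 in both libraries of 1 tissue and 1 in a petal and a leaf library of different numbers. They held 32 and 26 fragments in petal 1 and petal 2, against 24 and 16 in leaf 1 and leaf 2. One more contig with these words had a first hit outside the 5 genera.

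Among the other NB-LRR contigs, 5 hit genes of a Rosa hybrid named as TIR-NBS-LRR proteins. TR16677 (723 nt) had 0 and 5.09 FPKM in petal 1 and petal 2 and 0 and 2.57 FPKM in leaf 1 and leaf 2, on 73 fragments (log2 difference 0.39, limma adjusted p = 0.892). TR15127 (512 nt) had 0 and 0 FPKM in petal 1 and petal 2 and 3.05 and 0.26 FPKM in leaf 1 and leaf 2, on 17 fragments. TR109878 (391 nt) had 2.08 and 1.66 FPKM in petal 1 and petal 2 and 0 and 0 FPKM in leaf 1 and leaf 2, on 8 fragments. Each of these was listed at 0 in 2 libraries, of number 1, of petal and of leaf. TR139225 (303 nt) had 3.38 and 0 FPKM in petal 1 and petal 2 and 5.16 and 2.29 FPKM in leaf 1 and leaf 2. It had 6 fragments (log2 difference -1.11, limma adjusted p = 0.629). TR143923 (342 nt) had 2.61 FPKM in leaf 1 alone, on 3 fragments.

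Of the 8 WRKY contigs, 2 hit WRKY transcription factor 19, which in Arabidopsis is a TIR-NBS-LRR protein with a WRKY domain. TR118306 (555 nt) had 1.92 and 0 FPKM in petal 1 and petal 2 and 0 and 2.30 FPKM in leaf 1 and leaf 2, on 9 and 11 fragments. TR135104 (301 nt) was listed at 0 in every library.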
